A study of Danio rerio with 4 samples.

Results

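The genes described here encode the protein factors of translation, the aminoacyl-tRNA synthetases and a set of nucleolar proteins that modify and assemble ribosomal RNA. They were matched by gene symbol, and the name stems were chosen with earlier results of these data known. The stems were those of the initiation, elongation and release factors, the synthetases and their scaffold proteins and the cytoplasmic poly(A) binding proteins. Those of the nucleolar proteins fibrillarin, nucleolin, nucleophosmin, dyskerin and their partners were also included. Of 8793 genes with a named probe set on the array, 104 matched, and each was read from its brightest probe set. Nucleolar proteins make up 11 of the 104, so the set is wider than translation factors and synthetases. The RNA came from hearts and adjoining tissue of wild-type zebrafish embryos at 48 hours post fertilization. One group received 10 μM SU5402, an inhibitor of fibroblast growth factor (FGF) receptors diluted from a stock in DMSO, and sibling controls received 1% DMSO. Each group had 2 replicates on 1 Affymetrix array each, 4 arrays in all, and the question was which transcripts differ where FGF receptors are inhibited. The labels do not state separate clutches, so p-values reflect variation among these few arrays, possibly technical in part. The number of arrays limits the precision.

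Translation starts when eIF2 carries the initiator tRNA to the small ribosomal subunit, eIF3 holds the complex together and the eIF4 factors bring in the capped mRNA. Elongation factors then deliver charged tRNAs and move the ribosome, and release factors end the chain at a stop codon. Synthetases attach each amino acid to its tRNA. Ribosomes themselves are put together in the nucleolus, where small nucleolar ribonucleoproteins (snoRNPs) methylate and pseudouridylate ribosomal RNA. These genes are used by every cell, and growing and dividing cells are known for high demand on ribosome assembly. In bulk tissue, fewer cells of a type and less RNA per cell cannot be told apart.

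Values are log2(intensity + 16) and differences are SU5402 minus DMSO on that scale, which understates the difference of dim genes. Background (log2 7.25) was taken as the 95th percentile of Tag probe sets, controls without a zebrafish target. Among the heart muscle markers, the ventricular myosin gene myh7 stood at 11.38 and 9.19 with DMSO and 12.46 and 12.77 with SU5402. Of the 7 markers, 1 had a group mean below background, tnnc1a, at 6.74 and 6.10 with DMSO. The marker tnnt2a read 9.10 and 7.19 with DMSO, the second value below background. The fin fold marker and2 read 13.56 and 14.09 with DMSO. All 7 measured heart muscle markers were higher after SU5402 (median 1.999), as were all 9 neuron markers (median 1.00), while all 5 fin fold mesenchyme markers (median -4.31) and 29 of 31 cell cycle genes (median -1.10) were lower, and 7 of 8 FGF target genes were lower (median -1.82). DMSO replicate 2 stood apart in heart muscle markers, reading below DMSO replicate 1 by a median of 1.91, and without it their median difference was 0.99, against 3.10 without DMSO replicate 1. The neuron median was 0.52 without SU5402 replicate 1. Of the endothelial markers, 3 of 4 were lower, and 2 of the 4 had both group means below background. Blood markers overlapped between groups in all 3 cases. Fast skeletal muscle markers were lower in 4 of 5 (median -1.05, -0.02 without DMSO replicate 2). Epidermis markers were lower in 4 of 4 (median -0.52, 0.20 without SU5402 replicate 1). Liver and yolk markers were higher in 4 of 4 (median 0.96, 0.34 without SU5402 replicate 1). Groups overlapped in 3 genes of each of these lists. The 1 lens marker was higher (0.47). The ratio of the 3′ to the 5′ control probe set of glyceraldehyde phosphate dehydrogenase, a measure of RNA integrity and labelling, was 20.3 and 21.7 with DMSO and 26.6 and 29.7 with SU5402. That of the actin gene acta1 was 12.6 and 26.6 with DMSO and 22.0 and 88.5 with SU5402, so its groups overlapped. The part of tissue makeup or RNA integrity in the differences below was not tested.

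Across the 104 genes, 76 were lower and 28 higher after SU5402, with a median difference of -0.32 against -0.08 over all 8793 genes. In limma 0 of the 104 passed an adjusted p under 0.05, as did 0% of all genes, and the lowest adjusted p among the 104 was 0.255. At an unadjusted p under 0.05, 18 were lower and 4 higher, so that 17.3% were lower against 8.04% of all genes. The higher genes compare with 5.31% of all genes. Both SU5402 arrays lay below both DMSO arrays for 48 of the 104, against 26.3% of all genes, and above them for 9, against 19.3%. An exact permutation of 2 against 2 arrays cannot give a two-sided p below 0.333. With 1 array left out, the median over the 104 genes stayed below that of all genes. It was -0.15 against -0.06 without DMSO replicate 1 and -0.45 against -0.11 without DMSO replicate 2. Leaving out SU5402 replicate 1 gave -0.45 against -0.11, and leaving out SU5402 replicate 2 gave -0.20 against -0.02. The excess over all genes in the lower share at an unadjusted p under 0.05 was absent without DMSO replicate 1 or without SU5402 replicate 2.

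**Figure D1:**
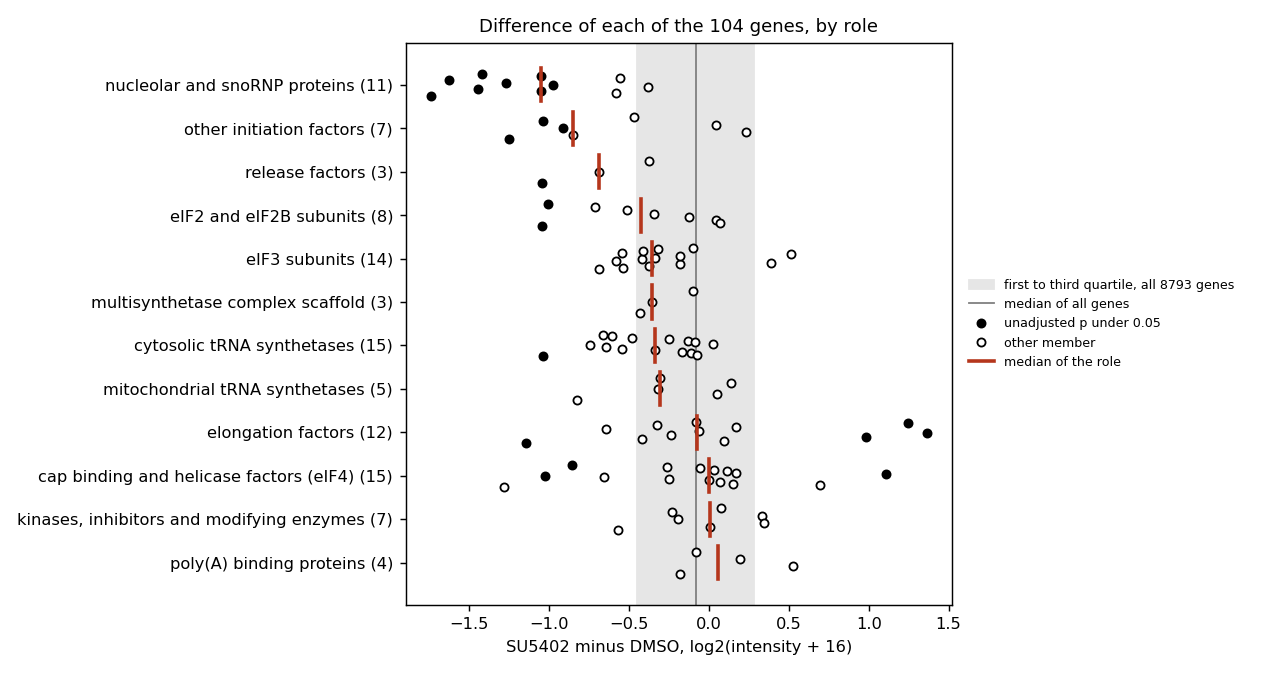
Difference between SU5402 and DMSO for each of the 104 genes on the log2(intensity + 16) scale, 1 point per gene in rows by role, with filled points for an unadjusted limma p under 0.05, a red bar for the median of the role and a grey band between the quartiles of all genes. The nucleolar genes lie furthest to the left with a median of -1.05, and the eIF4, kinase and poly(A) binding rows are centred near 0.

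The lower values were unevenly spread over the roles. All 11 nucleolar and snoRNP genes were lower after SU5402, with a median of -1.05, a range from -1.74 to -0.38 and 8 of the 11 at an unadjusted p under 0.05. Outside the nucleolar group, the median over 93 genes was -0.25. At that p, 10 of the 93 were lower and 4 higher, shares near the 8.04% and 5.31% of all genes. The difference between the nucleolar group and the rest was not tested.

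The largest difference was in dkc1, which encodes dyskerin, the pseudouridine synthase of H/ACA snoRNPs and a component of telomerase. Its values were 10.70 and 10.17 with DMSO and 9.02 and 8.37 with SU5402. Every SU5402 value lay more than 1 log2 unit below the lower DMSO value, and the difference was -1.74 (SE 0.38, 3.34-fold). Its adjusted p in limma was 0.255. The gene of its H/ACA partner, nhp2, stood at 10.74 and 10.24 in DMSO and 9.66 and 9.22 in SU5402. Its groups did not overlap either, and the difference was -1.05 (SE 0.35).

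The box C/D particles, which methylate ribosomal RNA, showed the same direction. For nop58, a core protein of these particles, the DMSO arrays read 12.05 and 11.55 and the SU5402 arrays 10.52 and 9.82. That is a difference of -1.63 (SE 0.39), 3.09-fold, and a second probe set of nop58 gave -1.63 as well. Fibrillarin, the methyltransferase itself, is encoded by fbl, which read 11.33 and 11.04 in DMSO against 10.14 and 9.39 in SU5402. The fbl groups were separate and differed by -1.42 (SE 0.38). Both nop58 and fbl were above background on all 4 arrays.

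Nucleophosmin and nucleolin are abundant nucleolar proteins that act in ribosome assembly and chaperoning. The nucleophosmin gene npm1a stood at 13.09 and 12.71 in DMSO and 11.90 and 11.36 in SU5402, a difference of -1.27 (SE 0.35). A second npm1a probe set read 0.12, so the probe sets disagreed and the mean over both was -0.57. Its paralog npm1b was above background on 1 array only, and its values of 8.09 and 6.98 in DMSO overlapped those of 7.12 and 6.84 in SU5402. Nucleolin (ncl) had replicates close together, at 11.89 and 11.78 in DMSO and 11.01 and 10.70 in SU5402, a difference of -0.98 (SE 0.31).

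The remaining nucleolar genes are known mainly from yeast as assembly factors of the large subunit (nop16, nop2 and nop53) and of the small subunit (nop14), and nop2 is also an RNA methyltransferase. The nop16 values were 10.33 and 9.66 in DMSO and 9.08 and 8.02 in SU5402 (difference -1.44), and those of nop2 were 10.61 and 9.85 against 9.43 and 8.92 (difference -1.05). Both separated by group. Differences of nop53 (-0.58) and nop14 (-0.38) had unadjusted p of 0.155 and 0.351 in limma, and the nop14 groups overlapped. With 1 array left out, the number of nucleolar genes at an unadjusted p under 0.05 was 2 without DMSO replicate 1 (dkc1 and nop58), 7 without DMSO replicate 2, 8 when SU5402 replicate 1 was left out and 4 when SU5402 replicate 2 was. Their median ran from -1.43 to -0.83 over these settings.

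**Figure D2:**
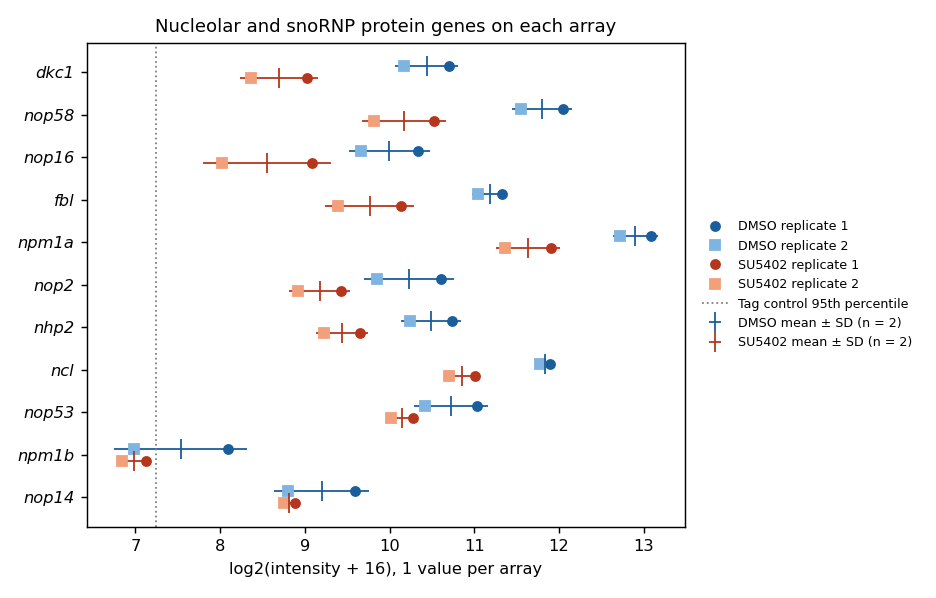
Values of the 11 nucleolar and snoRNP protein genes on each array as log2(intensity + 16), with DMSO in blue and SU5402 in red, a vertical tick for the group mean and a bar for its SD over 2 arrays; the dotted line is the Tag background. In 9 of the 11 genes both SU5402 arrays lie below both DMSO arrays, against 26.3% of all genes. In all 11 replicate 1 reads above replicate 2 in both groups.

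Replicate 1 of each group read above replicate 2 for most of the 104 genes. DMSO replicate 1 was above DMSO replicate 2 in 82 of 104 genes (median 0.29) and SU5402 replicate 1 above SU5402 replicate 2 in 86 (median 0.33), against 4892 and 5268 of all 8793 genes. As medians relative to each gene's mean, the nucleolar group lay at 0.83 and 0.39 with DMSO and -0.31 and -0.78 with SU5402, so the groups stayed apart. The other 93 genes lay at 0.27 and -0.01 in DMSO and -0.01 and -0.30 in SU5402, so that DMSO replicate 2 and SU5402 replicate 1 met and the spread within a group was as wide as the gap between groups. Across the 4 arrays, the nucleolar medians ran in the reverse order of the 3′ to 5′ ratio of glyceraldehyde phosphate dehydrogenase but not of acta1, in which DMSO replicate 2 was above SU5402 replicate 1. Whether RNA integrity contributed was not tested.

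**Figure D3:**
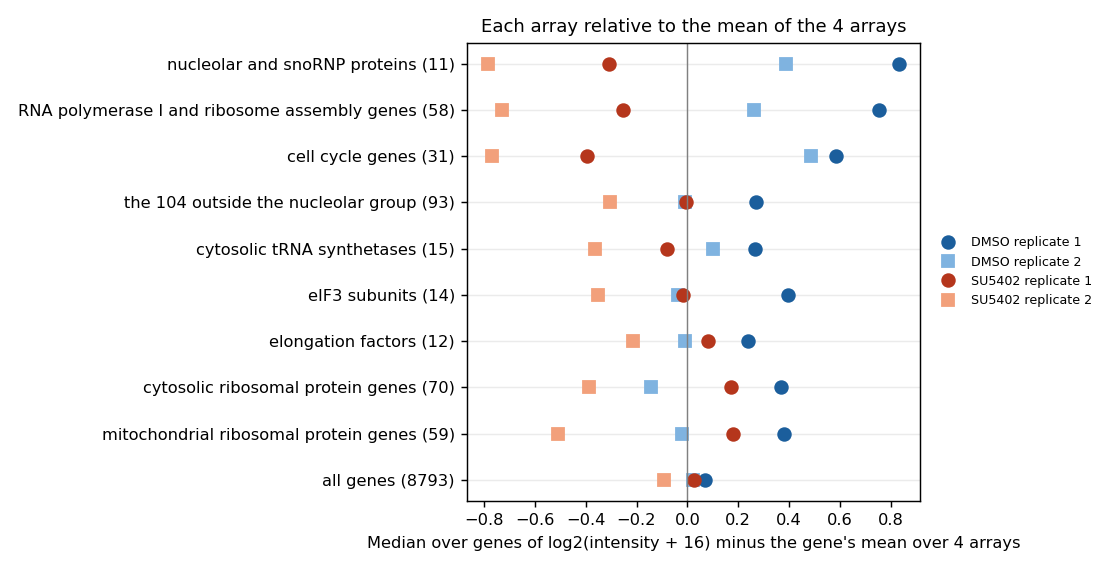
Median over the genes of each group of log2(intensity + 16) minus the gene's mean over the 4 arrays, 1 point per array, with DMSO in blue and SU5402 in red, circles for replicate 1 and squares for replicate 2. Nucleolar, ribosome assembly and cell cycle genes separate by treatment. Cytosolic synthetase genes do so by less, at 0.27 and 0.10 in DMSO against -0.08 and -0.36 in SU5402. The 93 genes outside the nucleolar group, read as a set, include these synthetases. In that set and in the ribosomal protein genes, the replicates of a group lie as far apart as the treatments.

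Among the initiation factors outside the eIF2, eIF3 and eIF4 complexes, 5 of 7 genes were lower, with a median of -0.85. Of the 7, 3 were lower at an unadjusted p under 0.05, against 8.04% of all genes. The gene eif1axa encodes eIF1A, which opens the small subunit for scanning of the mRNA. It stood at 11.04 and 10.75 in DMSO and 9.74 and 9.55 in SU5402, a difference of -1.25 (SE 0.31), 2.38-fold, and a second probe set gave -1.76. Its groups were separated by more than the spread within either. The eIF6 gene eif6, whose product keeps the large subunit from joining too early and acts in its maturation, stood at 9.31 and 9.36 against 8.48 and 8.11, a difference of -1.04 (SE 0.31). For eif2d, whose product can deliver tRNA to the ribosome without eIF2, the values were 8.85 and 9.02 against 8.21 and 7.83 (difference -0.91). Also separate were eif2a, an alternative initiator tRNA carrier, at -0.85 (unadjusted p = 0.0554 in limma) and eif5b, the subunit joining factor, at -0.47. The groups overlapped for eif5, the activator of the eIF2 GTPase (0.05), and for eif1axb (0.23), whose other probe sets were both below 0.

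The eIF2 complex and its exchange factor eIF2B, the point where initiation is throttled under stress by phosphorylation of the eIF2 alpha subunit, had 6 of 8 genes lower and a median of -0.43, which was -0.24 without DMSO replicate 1, -0.68 without SU5402 replicate 1 and -0.13 without SU5402 replicate 2. One of the paralogous alpha subunit genes, eif2s1a, read 10.89 and 10.51 in DMSO and 10.03 and 9.28 in SU5402 (difference -1.04, SE 0.38). The other, eif2s1b, overlapped at -0.12. The eIF2B gamma subunit gene eif2b3 read 9.26 and 8.98 in DMSO and 8.33 and 7.90 in SU5402 (difference -1.01, SE 0.33). These were the 2 of the 8 genes with an unadjusted p under 0.05, where 8.04% of all genes were lower at that p. The epsilon subunit gene eif2b5, which carries the exchange activity, was separate at -0.71 (unadjusted p = 0.0561 in limma), and eif2s2, eif2b1, eif2b2 and eif2b4 overlapped, at -0.51 to 0.07.

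Of 14 genes for subunits of eIF3, the scaffold of the initiation complex, 12 were lower, but by small amounts, with a median of -0.36 and 0 at an unadjusted p under 0.05. The median was -0.16 without DMSO replicate 1 and -0.59 without DMSO replicate 2. The lowest was eif3d, at 12.74 and 12.39 in DMSO and 12.06 and 11.69 in SU5402 (difference -0.69, SE 0.33, unadjusted p = 0.0824 in limma). Next came eif3ja at -0.58, eif3g and eif3i at -0.54, eif3m at -0.42 and eif3s10 at -0.41. These values lie close together, and the 2 exceptions above 0 were eif3jb (0.51) and eif3hb (0.39). The other members, eif3ha, eif3ea, eif3c, eif3ba, eif3eb and eif3f, lay between -0.38 and -0.10. In 13 of the 14 genes DMSO replicate 1 read above DMSO replicate 2, by a median of 0.38, which is as large as the difference between treatments.

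Genes of the eIF4 group, which bind the cap and unwind the mRNA, were centred at 0.00, with 7 lower and 8 higher of 15. At an unadjusted p under 0.05, 2 were lower and 1 higher, against 8.04% and 5.31% of all genes. The gene eif4h, for a cofactor of the eIF4A helicase, stood at 11.30 and 11.03 in DMSO and 10.30 and 9.99 in SU5402 (difference -1.02, SE 0.32). The helicase gene eif4a3, whose product sits in the exon junction complex rather than acting at the cap, had tight pairs at 11.19 and 11.21 against 10.39 and 10.29 (difference -0.86, SE 0.30). The helicase gene eif4a1a had a larger difference, -1.28 (SE 0.53), with wider pairs at 12.81 and 11.83 against 11.62 and 10.47, and an unadjusted p of 0.0527 in limma. Its second probe set read -1.61, and its paralog eif4a1b stood at 0.15. The cap binding protein gene eif4ea was at -0.65 and eif4e1c at -0.06, and the scaffold genes eif4g3a, eif4g3b, eif4g2a and eif4g2b lay between 0.00 and 0.69. The remaining genes, eif4bb, eif4e2rs1, eif4a2 and eif4e3, lay between -0.26 and 0.12. One gene was higher at an unadjusted p under 0.05, eif4e1b, but it was below background on all 4 arrays (4.76 and 5.44 against 6.46 and 5.96), and raised to background it had no difference.

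All 3 release factor genes were lower without overlap, as were 26.3% of all genes. Their median of -0.68 was -0.38 without DMSO replicate 1. The gene etf1b, for the factor that reads stop codons, stood at 11.63 and 11.26 in DMSO and 10.53 and 10.27 in SU5402 (difference -1.04, SE 0.32), and its other 3 probe sets ran from -0.89 to 0.10. Its GTPase partners gspt1l and gspt1 stood at -0.68 and -0.37. A second gspt1 probe set was below background on all 4 arrays.

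Elongation factor genes split in direction, with 7 lower and 5 higher of 12 and a median of -0.07. The brightest genes differed little. The eEF1A gene eef1a1l1, which encodes the carrier of charged tRNAs, read 14.82 and 14.83 in DMSO and 14.88 and 14.65 in SU5402, and the translocase gene eef2b read 14.18 and 13.95 against 13.86 and 13.63. The first overlapped at -0.06, and the second was separate at -0.32 (SE 0.31, unadjusted p = 0.337 in limma). The eIF5A genes, whose products help the ribosome through difficult peptide bonds, were at -0.64 (eif5a2) and -0.24 (eif5a), and the exchange factor subunit genes eef1db, eef1g and eef1b2 at -0.42, -0.08 and 0.09.

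Of the 12 elongation factor genes, 3 were higher and 1 lower after SU5402 at an unadjusted p under 0.05, against 5.31% and 8.04% of all genes. The eEF2-like gene eef2l2 stood at 6.42 and 6.64 in DMSO and 7.73 and 8.06 in SU5402 (difference 1.37, SE 0.32), and its other 2 probe sets were below background on all 4 arrays. The eEF1A genes eef1a1a and eef1a1b were at 1.25 (SE 0.34) and 0.98 (SE 0.37). For eef1a1a the values were 7.92 and 7.78 against 9.38 and 8.81, above background on all 4 arrays, and for eef1a1b they were 6.89 and 6.68 against 8.13 and 7.41. The lower one was the eEF2 gene eef2a.1, at 8.09 and 7.66 in DMSO and 6.97 and 6.48 in SU5402 (difference -1.15). In eef2l2, eef1a1b and eef2a.1 1 group lay below background. With values raised to it, eef1a1b and eef2a.1 were at 0.52 and -0.63 and no longer had an unadjusted p under 0.05. For eef2l2 both DMSO arrays lay below background and both SU5402 arrays above, so with values raised to it the difference is smaller than 1.37. The gene eef1a1l3 was below background on every array (0.17). Heart muscle and neuron markers were higher on the same arrays, at medians of 1.999 and 1.00 that depended on single arrays as given above, and whether these contributed was not tested. Of the 14 genes outside the nucleolar group with an unadjusted p under 0.05, many lost it with 1 array left out. Which genes did so changed with the array, as did the share of all genes at that p. The difference of eef2l2 ran from 1.20 to 1.53 with 1 array left out.

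**Figure D4:**
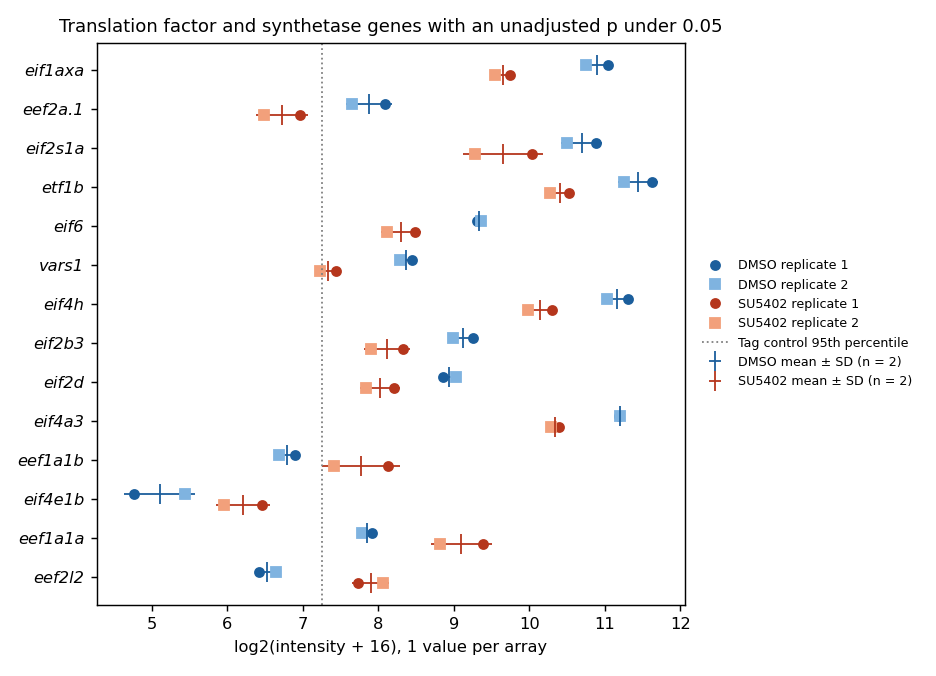
Values on each array, as log2(intensity + 16), of the 14 translation factor and synthetase genes outside the nucleolar group with an unadjusted limma p under 0.05, with DMSO in blue, SU5402 in red, ticks for group means, bars for the SD over 2 arrays and a dotted line for the Tag background. In the 10 upper genes both SU5402 arrays lie to the left of both DMSO arrays, and of the 4 lower genes only eef1a1a has all readings above background.

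Of 15 cytosolic synthetase genes, 14 were lower after SU5402, where 56.2% of all genes were, and 9 had both SU5402 arrays below both DMSO arrays, against 26.3% of all genes. The differences were modest (median -0.34, range -1.04 to 0.03), and 1 of 15 had an unadjusted p under 0.05, a share close to the 8.04% of all genes. This was vars1, the valyl-tRNA synthetase gene, at 8.45 and 8.28 in DMSO and 7.44 and 7.22 in SU5402 (difference -1.04, SE 0.31), and a second vars1 probe set, above background on 1 array only, stood at 0.01. The lysyl-tRNA synthetase gene kars1 followed at 11.87 and 11.88 against 11.31 and 10.96 (difference -0.74, SE 0.31, unadjusted p = 0.0562 in limma).

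The genes for the synthetases of cysteine (cars1), histidine (hars), arginine (rars1), threonine (tars1), glycine (gars1), alanine (aars1) and glutamine (qars1) were also separate between groups, at -0.66, -0.64, -0.61, -0.54, -0.48, -0.34 and -0.25. A second qars1 probe set above background read -0.49. The groups overlapped for glutamate and proline (eprs1), methionine (mars1), tyrosine (yars1), tryptophan (wars1) and isoleucine (iars1), which ranged from -0.17 to -0.07. Asparagine (nars1) was the exception above 0, at 0.03. The subunit genes of the phenylalanine enzyme, farsa and farsb, which the naming rule does not take in, were at -0.48 and -0.29. Scaffold genes of the multisynthetase complex were at -0.43 (aimp1a), -0.35 (aimp2) and -0.10 (eef1e1), and 0 of 3 had an unadjusted p under 0.05.

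**Figure D5:**
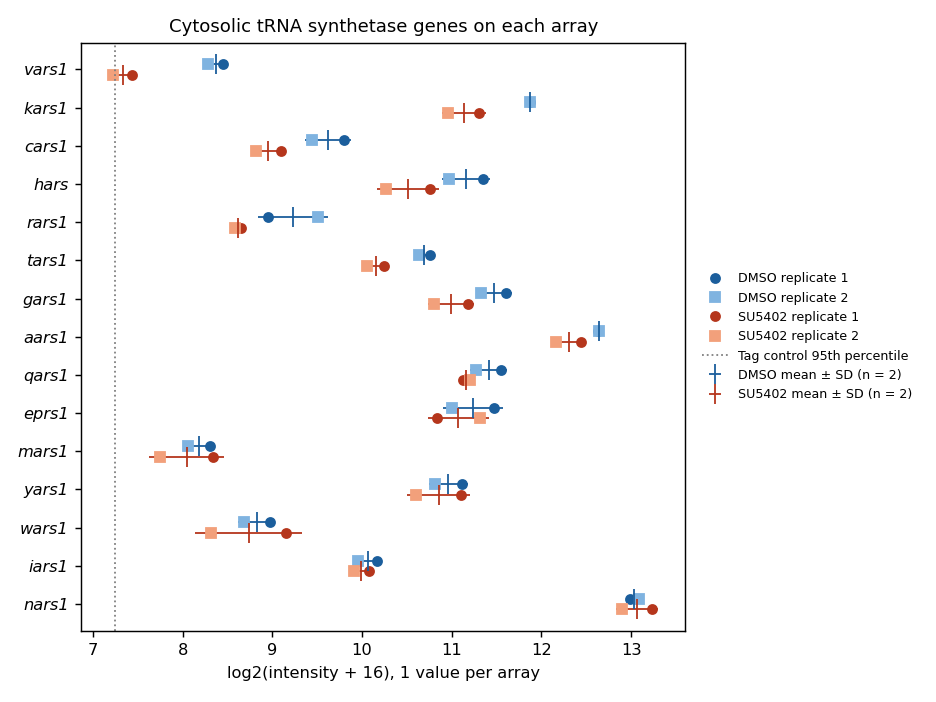
Values on each array, as log2(intensity + 16), of the 15 cytosolic tRNA synthetase genes, with DMSO in blue, SU5402 in red, ticks for group means, bars for the SD over 2 arrays and a dotted line for the Tag background. In the upper 9 genes both SU5402 arrays lie below both DMSO arrays, and in the lower 6 the groups overlap.

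The mitochondrial synthetases read here are separate enzymes that serve the organelle's own ribosomes. Of the 5 measured genes, 4 had both group means below background, so little can be read from their differences, which were -0.83 for wars2, -0.32 for fars2, -0.31 for cars2 and 0.05 for pars2. The one above background, rars2, stood at 7.97 and 7.69 in DMSO and 8.16 and 7.77 in SU5402 and overlapped.

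Genes of regulators that act on these factors gave no unadjusted p under 0.05, and their median was 0.00 over 7 genes. The inhibitors of the cap binding protein, which mTOR signalling holds in check, were at 0.34 (eif4ebp1), 0.00 (eif4ebp2) and -0.57 (eif4ebp3l). In eif4ebp2 the 4 arrays lay between 12.65 and 12.75. The SU5402 arrays were far apart in eif4ebp3l, at 7.76 and 9.20. The eEF2 kinase gene eef2k was at -0.23, the eIF2 kinase gene eif2ak3 (PERK, of the endoplasmic reticulum stress response) at 0.33, the transporter of the cap binding protein eif4enif1 at -0.20 and the methyltransferase gene eef1akmt2, below background on all arrays, at 0.07. These levels are of mRNA, and phosphorylation was not measured.

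The poly(A) binding protein genes, which protect mRNA tails and aid initiation, had a median of 0.06 over 4, with 3 overlapping between groups. Values of pabpc1a were 14.25 and 14.10 in DMSO and 14.05 and 14.14 in SU5402. The other genes, pabpc1b, pabpc4 and pabpc1l, were at 0.53, 0.19 and -0.18. Of the 4, pabpc1b was separate between groups and pabpc1l was below background on every array.

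Several factors have duplicate genes in zebrafish, and the log2 ratio of one to the other within an array does not depend on the scaling of that array. In 9 of 11 such pairs among these genes the ratio did not overlap between SU5402 and DMSO arrays, against 45.1% of 661 pairs of genes on the array whose symbols differ only in a final a or b. The ratio of eif1axa to eif1axb was 0.00 and 0.52 in DMSO and -1.09 and -1.36 in SU5402. For eif4a1a to eif4a1b it was 0.77 and 0.21 in DMSO and -0.48 and -1.40 in SU5402. In each pair the first gene was lower relative to the second after SU5402, with shifts of -1.48 and -1.43. The same direction held for eif3ja to eif3jb (-1.10), eif2s1a to eif2s1b (-0.92), npm1a to npm1b (-0.71), pabpc1a to pabpc1b (-0.61) and, by less, eif3ea to eif3eb (-0.16), whereas eif4g3a to eif4g3b (0.52) and eef1a1a to eef1a1b (0.26) went the other way. The ratios of eif3ha to eif3hb and of eif4g2a to eif4g2b overlapped. Probe sets of near-identical copies can pick up each other's transcripts, and the other probe sets of eif1axb had the opposite sign, as given above. The gene npm1b was above background on 1 array only, and a second npm1a probe set read 0.12. For these reasons the ratios are uncertain.

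The other steps of ribosome production were read from a list of RNA polymerase I subunits and assembly factors, of which 58 were measured. Of these, 57 were lower after SU5402, where 56.2% of all genes were. At an unadjusted p under 0.05, 30 were lower and 0 higher, against 8.04% and 5.31% of all genes. The median of -0.98 was close to that of the nucleolar group. Like the members, the list was chosen with earlier results of these data known. Relative to each gene's mean the list stood at 0.75 and 0.26 in DMSO and -0.25 and -0.73 in SU5402. Among them rrs1, an assembly factor of the large subunit known from yeast, stood at 10.69 and 10.34 in DMSO and 8.995 and 8.32 in SU5402 (difference -1.86, SE 0.37). Also among the 3 with the lowest p were rrp7a (-1.63, SE 0.32), a small subunit factor in yeast whose SU5402 values lay below background, and sdad1 (-1.55, SE 0.33).

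The ribosome's own proteins showed smaller values. Of 70 cytosolic ribosomal protein genes, 64 were lower, but the median was -0.22, 0 had an unadjusted p under 0.05, and all 70 read higher in replicate 1 than in replicate 2 of both groups, by medians of 0.53 and 0.55. Their median difference was 0.030 without DMSO replicate 1 and 0.048 without SU5402 replicate 2, opposite in sign to that over all 4 arrays. Of 59 mitochondrial ribosomal protein genes, 55 were lower, 1 of them at that p, and the median of -0.35 was -0.00090 without SU5402 replicate 2. The mitochondrial translation factors, 6 of them measured, had a median of -0.28 (0.021 without DMSO replicate 1), and the exchange factor gene tsfm was the 1 at that p (-1.01, SE 0.38), with both SU5402 arrays below background. Cell cycle genes had 22 of 31 lower at an unadjusted p under 0.05, against 8.04% of all genes. Relative to each gene's mean they stood at 0.58 and 0.49 in DMSO and -0.39 and -0.77 in SU5402. These values were of the same size as those of the nucleolar group. Whether fewer dividing cells contributed to the nucleolar values was not tested.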

How the data were processed

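The authors deposited probe set intensities on a linear scale, 1 for each probe set and array. For the summary algorithm, software and scaling, the sources used here give nothing. All 4 arrays had a 2% trimmed mean of 500.1, and 55.2% to 56.1% of probe sets lay above the Tag background. Members and lists were chosen with earlier results of these data known. The ribosomal protein list was corrected for wrongly matched symbols after the values were available, and a doubtful synonym was dropped from the cell cycle list.

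The 115 control probe sets were left out and 15502 were tested. Of these, 10795 had 1 symbol, 135 several and 4572 none. Intensities were taken to log2(value + 16) and fitted with limma 3.58.1 (R 4.3.3; treatment as the single term, two-sided, Benjamini-Hochberg over all probe sets). The fit was also run on simulated data with independent noise for each probe set and array. Such data lack the shift between replicates that many genes share here, so they do not test its effect. Genes were named by role: up to 5 with the lowest p under 0.05 and no overlap (filled to 2), the highest mean, and a fixed list (51 genes); the other members are named to account for all 104, after their values were seen. Of the 104, 23 had several probe sets, 8 lay below background in both groups and 4 in 1. Alternatives were other normalisations, pseudocounts, filters, a background floor, variance models, a replicate block, probe set means and each array left out (for the comparison lists, chosen after seeing the data). No sequences were used.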

Additional observations from a re-analysis of the deposited data

How the results depend on the processing

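With 2 arrays a group, the counts depend on single arrays, and a lone array left in a group is assumed to vary like the other pair. Leaving out each array in turn moved the count of lower genes at an unadjusted p under 0.05 from 18 to between 2 and 23 and the count of higher genes from 4 to between 2 and 6, and the median over the 104 genes stayed between -0.45 and -0.15. The count of higher genes at an unadjusted p under 0.05 was 4 in the main fit. It was 1 of 92 without the dimmest 50% of probe sets, where 330 of all 5320 genes were higher. With a floor at the Tag background it was 2, where 365 of all 8793 genes were higher. With the replicate block 20 of the 104 genes (19.2%) were lower at that p, against 10.3% of all genes. At that p 4 were higher, where 622 of all 8793 genes were. Labels do not say that a number marks a shared clutch (deviations of same-numbered arrays correlated at 0.28). The block left 0 genes at an adjusted p under 0.05. Under other normalisations, pseudocounts, filters, variance models and probe set means, the lower count ran from 15 to 24. The lower share ran from 14.4% to 23.1%, against 6.64% to 10.4% of all genes. In these settings and with the floor, 0 of the 104 passed the adjusted threshold. A looser threshold of 0.10 was read for the main fit only, where 0 of the 104 passed as well.

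Group medians with 1 array left out ran from -1.43 to -0.83 (nucleolar), -0.51 to -0.29 (cytosolic synthetases), -0.32 to 0.073 (elongation), -0.17 to 0.075 (eIF4), -1.10 to -0.57 (other initiation), -0.68 to -0.13 (eIF2 and eIF2B), -0.59 to -0.16 (eIF3), -0.99 to -0.38 (release factors), -0.45 to 0.038 (mitochondrial synthetases), -0.60 to 0.034 (scaffold), -0.14 to 0.47 (poly(A) binding) and -0.050 to 0.058 (kinases and inhibitors). The last stood at 0.043, 0.054 and 0.026 with quantile normalisation, median centring and loess. The kinase and inhibitor median was -0.096 without the dimmest 50%, a filter that removed eef1akmt2, and -0.088 with probe set means. Without the dimmest 50%, rars2 was the only mitochondrial synthetase gene left, so the value of 0.14 is its own difference. With the floor the median of these genes was 0.00. This was fixed by the floor, since wars2, cars2 and pars2 were below background on all 4 arrays. The eIF4 median was -0.18 with probe set means. The causes of the other changes were not tested.

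Of the 51 named genes, 20 had an unadjusted p under 0.05, and in these the groups did not overlap. Leaving out 1 array could therefore not change their sign, and none of the 20 changed sign in the other settings. With 1 array left out, signs changed in genes without such a p, which were eif4e1c from -0.21 to 0.097, eprs1 from -0.40 to 0.072, nars1 from -0.13 to 0.19, eif2s1b from -0.41 to 0.16, eif3ba from -0.39 to 0.022, eif2ak3 from -0.19 to 0.86, eif4ebp2 from -0.050 to 0.058, eif4a1b from -0.062 to 0.36, eif2b2 from -0.14 to 0.28, rars2 from -0.059 to 0.33, pabpc4 from -0.12 to 0.51, eif4ebp3l from -1.28 to 0.15, eef1a1l1 from -0.18 to 0.053, wars2 from -1.69 to 0.038, aimp1a from -0.89 to 0.034 and eef1e1 from -0.42 to 0.22. With probe set means, eif2ak3 was at -0.088 and gspt1 at 0.13.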

Other observations

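Genes induced through ATF4 when amino acids run short, which include many that supply substrates to the synthetases, went in both directions. Of 15 measured, 7 were lower and 8 higher after SU5402 (median 0.06, from -0.22 to 0.18 with 1 array left out). The first enzymes of serine synthesis, phgdh and psat1, stood at 11.99 and 12.09 against 10.97 and 10.16 (difference -1.47, SE 0.38) and at 10.58 and 10.29 against 9.80 and 8.86 (difference -1.11, SE 0.41), and the asparagine synthetase gene asns was at -0.78. The transcription factor gene atf5a was higher, at 8.67 and 8.12 in DMSO and 10.53 and 10.21 in SU5402 (difference 1.98, SE 0.35). These 4 were the genes of the 15 with an unadjusted p under 0.05 in limma, 3 lower and 1 higher, against 8.04% and 5.31% of all genes. None passed the adjusted threshold.

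The 13 mTOR pathway genes had a median of 0.15. Of them 1 had an unadjusted p under 0.05, the GTPase gene rheb, which was higher (1.09, SE 0.43). That share is near the 5.31% of all genes that were higher at that p. Among 8 genes of the Myc family and polyamine synthesis, odc1, for the ornithine decarboxylase that starts polyamine synthesis, stood at 9.85 and 9.37 in DMSO and 7.79 and 8.24 in SU5402 (difference -1.59, SE 0.35). The Myc genes myca, mycb, mych and mycn were between -0.28 and -0.20, and the groups overlapped for myca and mycn.

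Other large complexes of the cell had medians between those of the translation factors and the nucleolar genes. Of 42 proteasome subunit genes, 39 were lower after SU5402 (median -0.58), and 30 had both SU5402 arrays below both DMSO arrays, against 26.3% of all genes. All 8 genes of the chaperonin CCT, which folds actin and tubulin, were lower (median -0.59), as were 44 of 46 splicing factor genes (median -0.46). At an unadjusted p under 0.05 in limma, 3, 1 and 3 genes of these lists were lower (3 of 42, 1 of 8 and 3 of 46), where 8.04% of all genes were, and none passed the adjusted threshold. Without SU5402 replicate 2 the medians of the 3 lists were -0.34, -0.29 and -0.20. Whether these lists differ from the translation factors was not tested.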
